A study of Mus musculus with 19 samples.

Results

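The syndecan family of transmembrane heparan sulfate proteoglycans was described here through its 4 genes, Sdc1, Sdc2, Sdc3 and Sdc4, in Kupffer cells (KCs), the resident macrophages of the liver. The genes were taken by symbol, and each had 1 probeset assigned to that single symbol, so that the choice of the probeset with the highest mean left nothing to decide. They made up 4 of 19938 genes measured on 19 arrays. The family had been chosen with earlier results of these arrays known, and Sdc2 is among the genes that the study itself picked out on these arrays as differing between KCs of monocyte and of embryonic origin. The values of Sdc2 in that comparison are therefore given as a description, with no test, whereas the other members and the comparisons among embryonic KCs were tested.

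Monocyte-derived KCs (mo-KCs) came from KC-DTR mice, in which diphtheria toxin (DT) had removed the KCs and blood monocytes had refilled the emptied niche. There were 3 arrays of mo-KCs 15 days after 50 ng DT and 5 arrays 30 days after the same dose. The 11 arrays of embryonic KCs (em-KCs) comprised 3 of WT mice, 3 of KC-DTR mice without DT, 1 of a WT littermate of the KC-DTR colony without DT, and 2 each of WT littermates 15 and 30 days after 50 ng DT, and all 11 entered the em-KC group. Mice were between 6 and 12 weeks old. The KC-DTR allele is a knock-in that places YFP and the human DT receptor behind Clec4f, so that the gene that drives the receptor is also the gene whose protein was used to sort the cells. The sort took live cells with CD45, Clec4F and the antigen encoded by Adgre1, with intermediate CD11b and without Ly6C, Ly6G and SiglecF. Such a gate would leave out hepatocytes, stellate cells and endothelium, which lack CD45, and B cells and plasma cells, which lack Clec4F. The 8 arrays from KC-DTR mice without DT and their littermates are called colony em-KCs below. Each array is labelled a separate biological replicate.

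Syndecans are single-pass membrane proteins whose extracellular part carries heparan sulfate chains, long sulfated sugars that bind growth factors, chemokines, lipoproteins and matrix proteins. Sdc1 is best known from epithelia and plasma cells, and on hepatocytes it takes up remnant lipoproteins. Sdc2 is the syndecan of fibroblasts and other mesenchymal cells, Sdc3 that of neural tissue, and Sdc4 is found in most cell types and sits in focal adhesions. The short cytoplasmic tails bind PDZ proteins such as syntenin, and the ectodomain with its chains can be cut off by metalloproteinases.

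Clec4f, the marker of the sort, was present on every array, with 12.18 ± 0.03 in day 15 mo-KCs (SD, n = 3), 11.25 ± 0.62 in day 30 mo-KCs (n = 5) and 12.51 ± 0.15 in em-KCs (n = 11). All values are log2 expression as deposited, where a difference of 1 is a doubling. The arrays fell into 2 sets by their Y-linked genes, whose mean was 3.97 to 4.18 on 6 arrays (day 30 mo-KC replicates 3 to 5 and the 3 WT em-KC arrays) and 7.33 to 7.83 on the other 13. The study used mice of both sexes, and the labels do not give the sex behind each array, so the sets may differ in sex. The mean of 17 hepatocyte genes was 7.88 ± 0.22 in day 15 mo-KCs and 8.13 ± 0.65 in day 30 mo-KCs (7.48 and 7.51 on the arrays with high Y-linked genes, 8.08 to 8.84 on the others). It was 9.82 ± 0.10 in WT em-KCs and 8.15 ± 0.28 in colony em-KCs. In bulk RNA, a change in the number of cells that carry a transcript and a change in its amount per cell cannot be told apart.

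**Figure D1:**
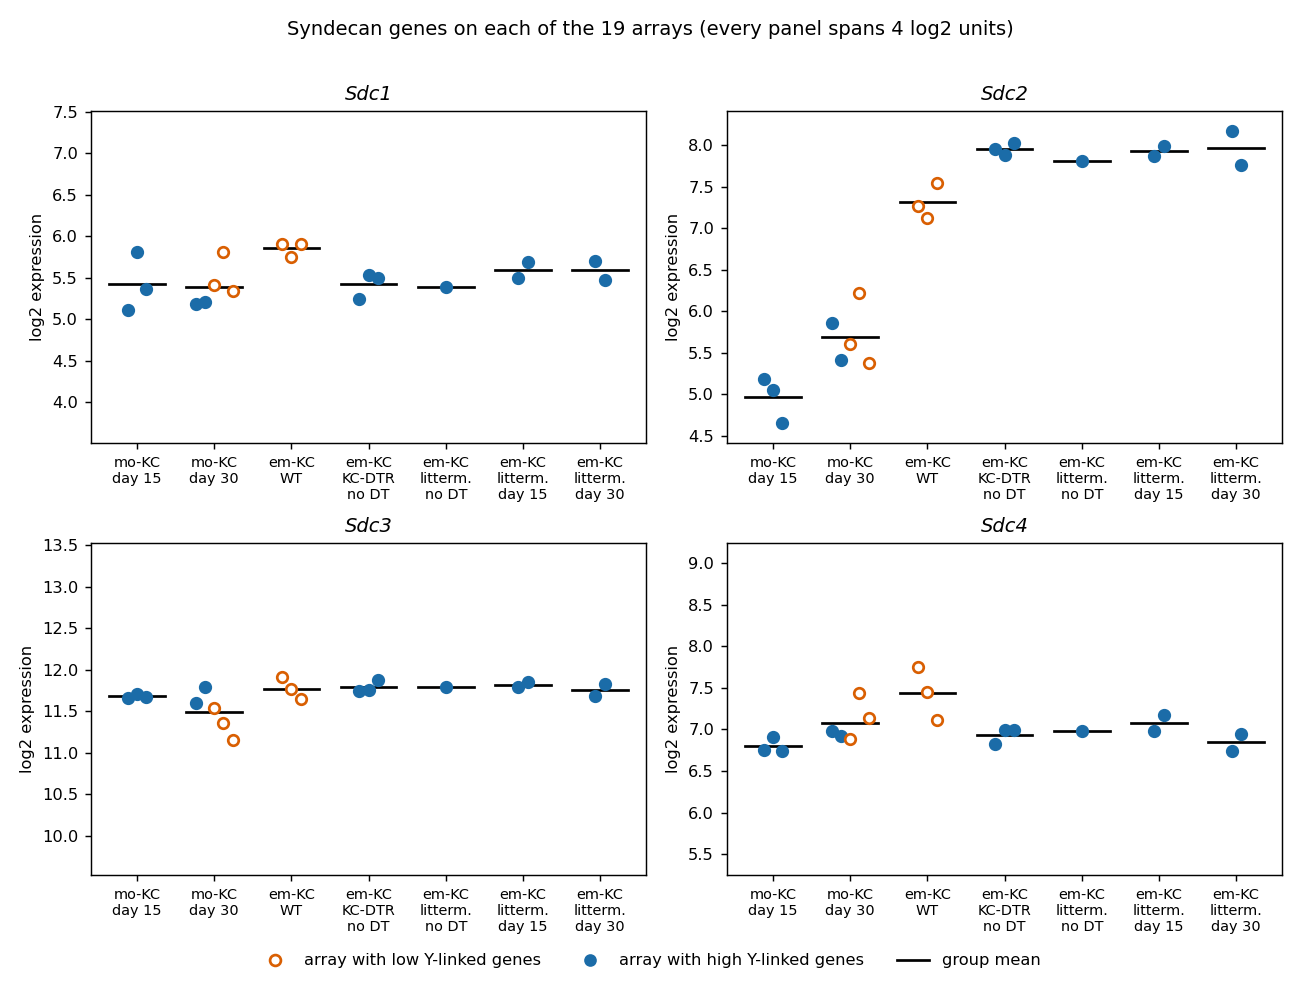
Log2 expression of each syndecan gene (y axis, 4 log2 units in every panel) in the 7 conditions (x axis), with 1 point per array, open where Y-linked genes were low, and a line at the group mean. Sdc2 lay at 4.66 to 6.22 on the 8 mo-KC arrays and at 7.13 to 8.17 on the 11 em-KC arrays, while Sdc1, Sdc3 and Sdc4 overlapped between mo-KCs and em-KCs.

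Sdc2 was the member with the large difference between mo-KCs and em-KCs. It measured 5.19, 5.06 and 4.66 in day 15 mo-KCs. It measured 5.85, 5.41, 5.60, 6.22 and 5.37 in day 30 mo-KCs. In em-KCs it ran from 7.13 through a median of 7.86 to 8.17. The 3 groups did not overlap, and every day 15 array lay below every day 30 array, as for 329 of 19938 genes. Of all 19938 genes, 51 (0.256%) had every mo-KC array below every em-KC array, and Sdc2 was one of them.

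The mean of Sdc2 was 4.97 ± 0.27 in day 15 mo-KCs and 7.76 ± 0.32 in em-KCs, a difference of -2.79 (SE 0.19), or 6.94-fold lower in mo-KCs. At day 30 it was 5.69 ± 0.35 against the same em-KCs, a difference of -2.07 (SE 0.16), or 4.20-fold lower in mo-KCs. The day 30 fold is larger than the greatest mean difference that the paper states, for Cd209f. The legend of the figure cited there compares em-KCs with mo-KCs at day 30 but does not name the em-KC arrays. The 2 values may therefore rest on unlike arrays and processing. Among all genes here Sdc2 had rank 6 from the lowest difference at day 30, so other genes fell further. The day 30 value of Sdc2 stood 0.72 above its day 15 value (SE 0.22), so that the difference from em-KCs was 25.9% smaller at day 30. All 3 day 15 arrays had high Y-linked genes and 3 of the day 30 arrays low ones, so the days also differ in array set. The day 15 mean of Sdc2 lay below the 5.43 of Sdc1, a gene low on all arrays, so the size of its fall there is uncertain. Sdc2 was not among the genes called between the 2 days. Since both days were set against the same em-KC arrays, the 2 differences are not independent. Against the 3 untreated KC-DTR em-KC arrays alone, which carry the same allele, Sdc2 was -2.99 (SE 0.20) at day 15 and -2.26 (SE 0.17) at day 30. Over all alternatives other than leaving out an array, the difference lay between -2.96 and -2.77 at day 15, and between -2.30 and -1.58 at day 30. Of 15 stellate cell and fibroblast genes, which mark the liver cells best known for Sdc2, none was called against em-KCs at either day (0.502% of all genes were at day 15 and 0.787% at day 30), and their mean was 5.89 ± 0.10 in day 15 mo-KCs, 6.05 ± 0.13 in day 30 mo-KCs and 6.00 ± 0.15 in em-KCs. Other marker lists also differed between mo-KCs and em-KCs. Of 12 KC genes, among them the phosphatidylserine receptor gene Timd4 and the scavenger receptor gene Marco, 2 fell at day 15 and 4 at day 30, and their mean was 11.17 ± 0.08 in day 15 mo-KCs, 11.22 ± 0.11 in day 30 mo-KCs and 11.69 ± 0.05 in em-KCs, with no overlap between mo-KCs and em-KCs. Their median difference was smaller, at -0.16 at day 15 and -0.20 at day 30. Timd4 alone averaged 8.16 in day 15 mo-KCs, 9.62 in day 30 mo-KCs and 11.90 in em-KCs. Of 8 monocyte genes, the chemokine receptor genes Ccr2 and Cx3cr1 rose at day 15 and Cx3cr1 at day 30, and their mean was 7.40 ± 0.14 in day 15 mo-KCs, 7.09 ± 0.13 in day 30 mo-KCs and 7.01 ± 0.27 in em-KCs. Their median difference had the other sign at day 15 (-0.17) and was -0.02 at day 30. The hepatocyte mean was 7.88 at day 15, 8.13 at day 30, 8.61 ± 0.81 in em-KCs and 8.15 in colony em-KCs. Of its 17 genes, none fell at day 15 and 1 at day 30. The B and plasma cell mean was 6.18, 6.20 and 6.51 in day 15 mo-KCs, day 30 mo-KCs and em-KCs. The T and NK cell mean was 5.05, 5.05 and 5.23 there, and 1 gene of either list fell at each day. No gene of the sinusoidal endothelium, cholangiocyte and neutrophil lists was called at either day. The part of these lists in Sdc2 was not tested.

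The order of Sdc2 over the 7 conditions is given by the group means. Littermate em-KCs at day 30 after DT (7.96), untreated KC-DTR em-KCs (7.95) and littermate em-KCs at day 15 (7.93) overlapped in range, and the single untreated littermate array (7.81) lay within the range of the first of these. WT em-KCs followed at 7.31, then day 30 mo-KCs at 5.69 and day 15 mo-KCs at 4.97, and none of these overlapped with its neighbour above. Littermates that received DT but kept their KCs held Sdc2 at 7.76 to 8.17, against 7.81 in the littermate without DT.

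Sdc3, high on every array, lay in a narrow range in em-KCs, where its SD of 0.08 compares with a median SD of 0.19 over all genes. It measured 11.66, 11.71 and 11.68 in day 15 mo-KCs. It measured 11.61, 11.79, 11.54, 11.36 and 11.15 in day 30 mo-KCs, and 11.65 to 11.91 with a median of 11.79 in em-KCs. Day 30 mo-KCs reached below the em-KC range on 4 of 5 arrays and overlapped it on the fifth. The difference was -0.30 at day 30 (SE 0.08, 95% confidence interval -0.47 to -0.13), with an adjusted p of 0.092 from limma, and -0.11 at day 15 (SE 0.10, -0.31 to 0.10), with an adjusted p of 0.956. Neither passed the threshold of 0.05. Without day 30 replicate 2, the array with 11.79, the day 30 difference was -0.37 and passed, with an adjusted p of 0.0173 from limma. That array was the highest of its group. Over the 19 fits that each left out 1 array the difference ran from -0.37 to -0.21, and it did not pass in the other 18.

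Sdc1 gave low values on all arrays. It measured 5.12, 5.81 and 5.36 in day 15 mo-KCs and 5.19, 5.20, 5.41, 5.81 and 5.34 in day 30 mo-KCs, against 5.25 to 5.91 with a median of 5.53 in em-KCs. The 3 groups overlapped. Its differences of -0.17 at day 15 (SE 0.15, -0.48 to 0.14) and -0.21 at day 30 (SE 0.12, -0.47 to 0.05) did not pass the threshold (adjusted p of 0.955 and 0.507 from limma). The mean of 9 B and plasma cell genes, which mark the immune cells known to carry Sdc1, was 6.18 ± 0.16 in day 15 mo-KCs, 6.20 ± 0.15 in day 30 mo-KCs and 6.51 ± 0.14 in em-KCs, and its part in Sdc1 was not tested.

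Sdc4 likewise overlapped between groups. It measured 6.75, 6.91 and 6.75 in day 15 mo-KCs and 6.98, 6.93, 6.88, 7.44 and 7.14 in day 30 mo-KCs, against 6.75 to 7.75 with a median of 6.99 in em-KCs. The difference was -0.28 at day 15 (SE 0.16, -0.61 to 0.04; adjusted p of 0.883 from limma) and -0.01 at day 30 (SE 0.13, -0.28 to 0.26; adjusted p of 0.980). Its intervals leave room for a change of up to 0.61 downwards at day 15, and of up to 0.28 downwards or 0.26 upwards at day 30.

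None of Sdc1, Sdc3 and Sdc4 passed the adjusted threshold at day 30, where 157 of all genes (0.787%) did so, or at day 15, where 100 genes (0.502%) did. The mean of both days called 237 genes (1.19%), and the comparisons with untreated KC-DTR em-KCs called 73 genes at day 30 (0.366%) and 78 at day 15 (0.391%), and these 3 members were not called there either. Sdc2, whose choice rested on this contrast, is left out of these counts. Between day 30 and day 15 mo-KCs, 4 genes (0.0201%) were called by limma and 1012 had an unadjusted p under 0.05. None of the 4 members was called there, with Sdc1, Sdc3 and Sdc4 at differences of -0.04, -0.19 and 0.27 (adjusted p of 0.983, 0.920 and 0.920).

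**Figure D2:**
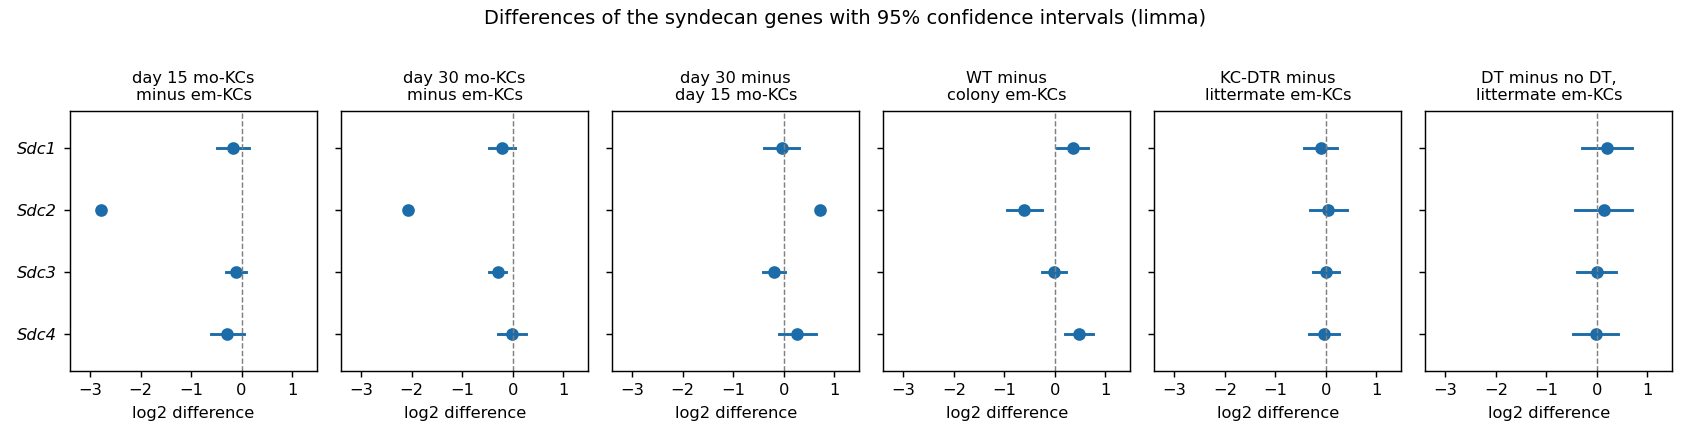
Log2 difference (x axis) of each syndecan gene (rows) in 6 comparisons (panels). Points mark the limma estimate, bars the 95% confidence interval and a dashed line 0. Sdc2, chosen on mo-KCs against em-KCs, has no bar in any comparison that includes mo-KCs, day 30 against day 15 among them. Sdc2 stood at -2.79 at day 15 and -2.07 at day 30, and in WT against colony em-KCs the intervals of Sdc2 (-0.95 to -0.25) and Sdc4 (0.20 to 0.76) lay on opposite sides of 0.

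Among em-KCs, WT mice were next compared with the KC-DTR colony. Sdc2 measured 7.27, 7.13 and 7.54 in WT em-KCs and 7.76 to 8.17 with a median of 7.92 on the 8 colony arrays. It had no overlap, as did 1850 of 19938 genes that lay lower in WT em-KCs. It was lower in WT em-KCs, with a difference of -0.60 (SE 0.17, -0.95 to -0.25; adjusted p = 0.0195 from limma). Sdc4 went the other way, with 7.75, 7.45 and 7.11 in WT em-KCs and 6.75 to 7.18 in colony em-KCs, overlapping on 1 WT array. Its difference was 0.48 (SE 0.13, 0.20 to 0.76; adjusted p = 0.0200 from limma).

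Sdc1 lay above every colony array in all 3 WT em-KC arrays, as did 1680 of 19938 genes, with 5.90, 5.75 and 5.91 against 5.25 to 5.70. Its difference of 0.35 (SE 0.15, 0.05 to 0.66) had an adjusted p of 0.106 from limma. Sdc3 had 11.91, 11.77 and 11.65 in WT em-KCs against 11.69 to 11.88 in colony em-KCs, a difference of -0.02 (SE 0.11, -0.25 to 0.22; adjusted p of 0.931). In this comparison 2 of 4 members were called, where 3289 of all genes (16.5%) were. The WT arrays were also the em-KC arrays with low Y-linked genes, and 16 of 17 hepatocyte genes and 5 of 15 stellate cell and fibroblast genes were higher in them by the same test. Mouse line, array set, the sex of the mice and hepatocyte RNA therefore cannot be told apart here. With the hepatocyte mean as a covariate, Sdc2 was at -0.83 (adjusted p of 0.234) and Sdc4 at 0.11 (adjusted p of 0.888), and neither was called when WT replicate 1 or WT replicate 2 was left out (Sdc2 -0.58 and -0.51, adjusted p of 0.0633 and 0.0936 from limma; Sdc4 0.32 and 0.47, adjusted p of 0.134 and 0.0601).

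The knock-in and the toxin were examined within the colony. Untreated KC-DTR em-KCs differed from littermate em-KCs by -0.10 for Sdc1, 0.05 for Sdc2, 0.00 for Sdc3 and -0.03 for Sdc4, with 95% confidence intervals that reached at most 0.43 from 0. Littermate em-KCs were here the mean of the untreated, day 15 and day 30 littermate means, with equal weight. Most of these littermates had received DT, so allele and toxin cannot be told apart in this comparison. Littermate em-KCs after DT differed from the 1 untreated littermate array by 0.20, 0.13, -0.00 and -0.02, with intervals that reached up to 0.70. No gene was called in either comparison (0%) by limma, with 756 and 441 genes at an unadjusted p under 0.05, and the single untreated array limits the second.

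**Figure D3:**
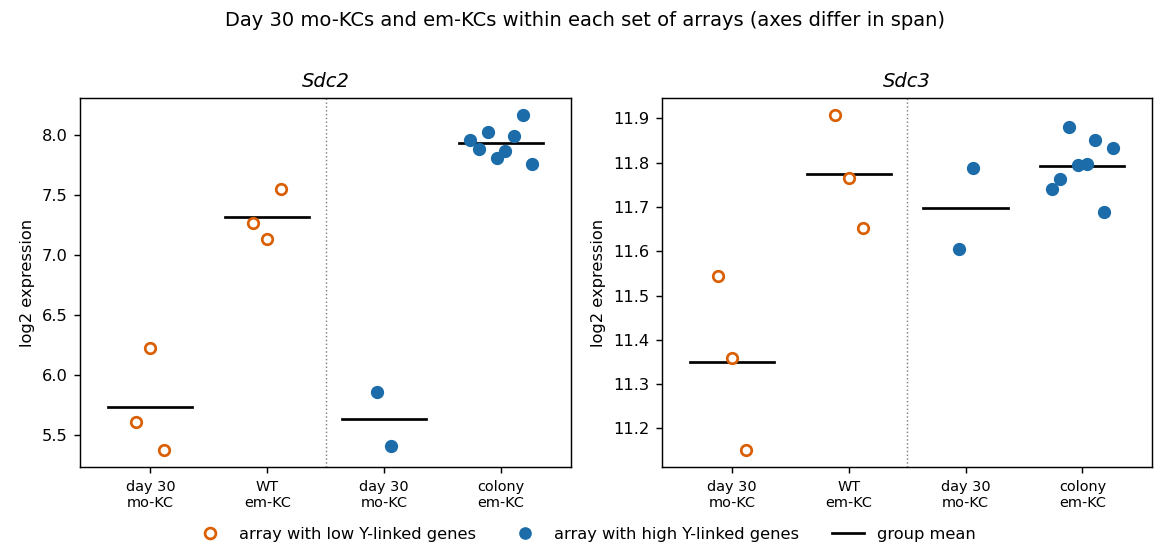
Log2 expression of Sdc2 and Sdc3 (y axis, with a different span in each panel) in day 30 mo-KCs and em-KCs, split by the Y-linked genes of the array, with 1 point per array and a line at the group mean. In the set with low Y-linked genes Sdc3 was 11.15 to 11.54 in day 30 mo-KCs and 11.65 to 11.91 in WT em-KCs, and in the other set day 30 mo-KCs, at 11.61 and 11.79, overlapped with colony em-KCs.

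Because day 30 mo-KCs were spread over both sets of arrays, each member was followed within them. Sdc2 in day 30 mo-KCs was 5.73 ± 0.44 on the 3 with low Y-linked genes and 5.63 ± 0.31 on the 2 with high ones, while the em-KCs of the same sets differed (7.31 ± 0.21 and 7.93 ± 0.13). The difference from em-KCs was accordingly -1.58 (SE 0.18) within the first set and -2.30 (SE 0.18) within the second. The gap between them was 0.72 (SE 0.26).

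Sdc3 showed the reverse pattern, at -0.42 (SE 0.10, -0.63 to -0.22) where Y-linked genes were low and -0.10 (SE 0.10, -0.30 to 0.11) on the other arrays, and the gap of -0.33 (SE 0.14) had an adjusted p of 0.197 from limma. The first of these passed the threshold in the fit of all arrays (adjusted p = 0.00633 from limma), in which 3452 genes (17.3%) passed within that set, but not in a fit of those 6 arrays alone (adjusted p of 0.136). Within the other set 53 genes (0.266%) passed, and Sdc3 did not. The mean of 15 sinusoidal endothelium genes, Cdh5 among them, was 9.21 ± 0.15 in day 30 mo-KCs and 9.36 ± 0.37 in WT em-KCs of the first set, and 9.74 ± 0.06 in day 30 mo-KCs and 9.62 ± 0.22 in colony em-KCs of the second, and its part in Sdc3 was not tested. Sdc1 was at -0.33 and -0.31 in the 2 sets (SE 0.15 each), a difference of -0.02 between sets (adjusted p of 0.973). Sdc4 was at -0.28 and 0.00 (SE 0.15 and 0.14), with -0.28 between sets (adjusted p of 0.490). None of the 4 members was among the 942 genes (4.72%) whose day 30 difference depended on the set.

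Genes that followed each syndecan over the 19 arrays were ranked by Pearson's r, given without a p because the arrays share groups and sets and are the arrays on which Sdc2 was chosen. Those most like Sdc2 were Bmpr1a (r = 0.96), a BMP receptor, C2 (0.96), a complement protease, Timd4 (0.95), the phosphatidylserine receptor of KCs, Colec12 (0.95), a scavenger receptor, and Xlr (0.94). All 5 had their highest group mean in em-KCs, and Bmpr1a for example averaged 3.61 in day 15 mo-KCs, 3.97 in day 30 mo-KCs and 6.57 in em-KCs. Its mo-KC means were not above the Y-linked mean of the low set (3.97 to 4.18), so they may be background signal and the size of its fall is uncertain. The genes most like Sdc3 were Ptprj (0.92), a receptor phosphatase, Cdh5 (0.92), a cadherin best known from endothelium, Cd68 (0.91), Lcp2 (0.91) and Csf1r (0.90), the receptor of the KC growth factor. These 5 had their lowest group mean in day 30 mo-KCs, as Sdc3 did, with Csf1r at 12.47 in day 15 mo-KCs, 12.26 in day 30 mo-KCs and 12.51 in em-KCs.

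Mst1 (0.83), Clu (0.81), Pym1 (0.81), Grifin (0.80) and the transthyretin gene Ttr (0.80) were most like Sdc1, of which Mst1 and Ttr encode proteins that hepatocytes secrete. Cdk3 (0.88), Cyp2b13 (0.88), Emp2 (0.87), Cyp2d26 (0.86) and A230083G16Rik (0.86) were most like Sdc4, of which Cyp2b13 and Cyp2d26 encode cytochrome P450 enzymes of the liver. Cyp2b13 averaged 3.11 in day 15 mo-KCs, 3.43 in day 30 mo-KCs and 3.41 in em-KCs. These values lay below the Y-linked mean of the low set (3.97 to 4.18), so its r may reflect background signal. Apart from fits with the hepatocyte mean as a covariate, the part of hepatocyte RNA in the levels of Sdc1 and Sdc4 was not tested. With that covariate Sdc1 was at -0.17 and Sdc4 at 0.11 in WT against colony em-KCs, and neither was called. Values that changed sign with it in the comparisons with mo-KCs are given in the last section.

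The genes that build, trim and use the chains were then counted in 7 lists, of which 140 of 146 genes were measured. Of 32 enzymes and transporters of heparan sulfate synthesis, 1 fell in mo-KCs of both days together, none was called at either day alone, and the median difference over both days was -0.05, beside -0.01 over all genes, of which 1.19% were called. The gene that fell was Hs3st3b1, a 3-O-sulfotransferase that adds a rare late modification. It had 6.88 to 7.18 in day 15 mo-KCs, 6.96 to 7.40 in day 30 mo-KCs and 7.26 to 7.83 in em-KCs (difference -0.39 for both days, SE 0.08; adjusted p = 0.0122 from limma). It was not called without day 15 replicate 3 (adjusted p of 0.0718). Hs6st1 and Ndst2, sulfotransferases with high levels in em-KCs, were at -0.15 and -0.04 and were not called.

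Among 11 measured genes for editing and breakdown of the chains, 1 rose and 1 fell at day 30 and 1 rose at day 15, where 0.787% and 0.502% of all genes were called. Sulf2, an extracellular sulfatase that removes 6-O-sulfates from finished chains, had 7.11, 7.23 and 7.23 in day 15 mo-KCs and 5.87 to 6.43 in em-KCs, with no overlap, as for 150 of 19938 genes that lay higher (difference 1.04, SE 0.12, or 2.06-fold; adjusted p = 1.98e-05 from limma). In day 30 mo-KCs it had 6.82, 6.82, 6.51, 6.52 and 6.25, which overlapped with em-KCs on 1 array (difference 0.43, SE 0.10; adjusted p = 0.0359 from limma). The day 30 call of Sulf2 was lost in 10 of the 19 fits that each left out 1 array, with an adjusted p of at most 0.0833, and on the 6 arrays with low Y-linked genes alone (0.22, adjusted p of 0.394).

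Hgsnat, the lysosomal acetyltransferase of heparan sulfate breakdown, had 9.26 to 9.47 in day 30 mo-KCs and 9.32 to 9.59 in day 15 mo-KCs, all below the 9.60 to 10.22 of em-KCs, as for 51 of 19938 genes. It fell at day 30 (-0.48, SE 0.09; adjusted p = 0.00906 from limma), and was at -0.45 within each set of arrays fitted alone, where it was not called (adjusted p of 0.0911 with low and 0.334 with high Y-linked genes). At day 15 the difference was -0.36 (SE 0.11; adjusted p of 0.269). Gusb, a lysosomal glucuronidase, was at -0.12 over both days and was not called.

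**Figure D4:**
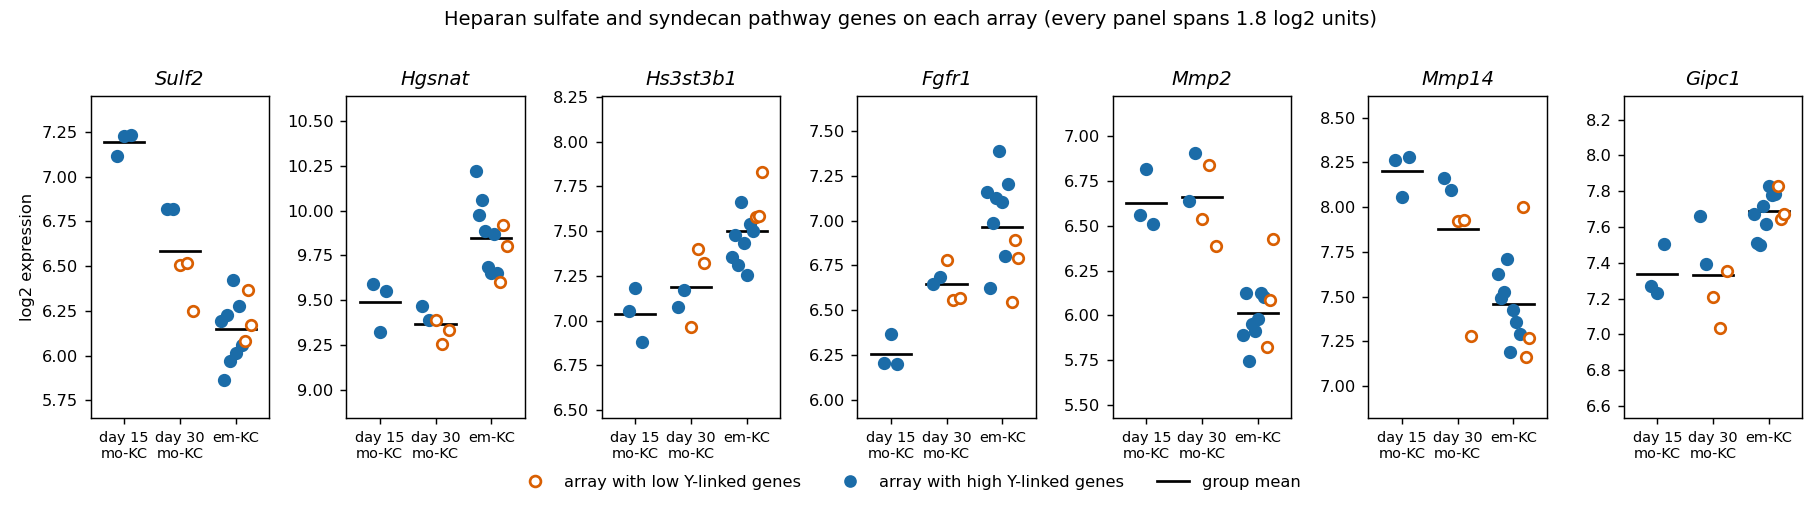
Log2 expression (y axis, 1.8 log2 units in every panel) of the 7 pathway genes called in at least 1 comparison with em-KCs, in day 15 mo-KCs, day 30 mo-KCs and em-KCs, with 1 point per array, open where Y-linked genes were low, and a line at the group mean. Sulf2, Mmp2 and Mmp14 had higher group means in mo-KCs of both days, and Hgsnat, Hs3st3b1, Fgfr1 and Gipc1 lower ones.

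Of 13 measured sheddases and inhibitors, which cut syndecan ectodomains or restrain the enzymes that do, 2 rose in day 15 mo-KCs and 1 in day 30 mo-KCs, beside 0.502% and 0.787% of all genes called. Mmp14, a membrane-bound metalloproteinase, had 8.26, 8.06 and 8.28 in day 15 mo-KCs and 7.16 to 8.0 in em-KCs (difference 0.74, SE 0.16; adjusted p = 0.0380 from limma). This call was lost in 12 of the 19 fits that each left out 1 array, with an adjusted p of at most 0.308. At day 30 Mmp14 was at 0.42 (SE 0.13; adjusted p of 0.174). Mmp2, the secreted gelatinase that Mmp14 activates, had 6.51 to 6.82 in day 15 mo-KCs, 6.39 to 6.91 in day 30 mo-KCs and 5.74 to 6.43 in em-KCs. It rose at day 15 (0.61, SE 0.12; adjusted p = 0.0162 from limma) and at day 30 (0.65, SE 0.10; adjusted p = 0.00144). The day 15 call of Mmp2 was lost when any of the 3 day 15 arrays was left out (adjusted p of at most 0.187). Adam10 and Adam17, the sheddases with the highest level in em-KCs, were at -0.01 and 0.02 over both days and were not called.

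Of 18 measured co-receptors and membrane partners, 1 fell at day 15 and none was called at day 30, beside the same 0.502% and 0.787%. Fgfr1, a fibroblast growth factor receptor that needs heparan sulfate to bind its ligands, had 6.20, 6.37 and 6.20 in day 15 mo-KCs, below the 6.54 to 7.39 of em-KCs, as for 210 of 19938 genes (difference -0.71, SE 0.13; adjusted p = 0.00944 from limma). At day 30 it was at -0.32 (SE 0.11; adjusted p of 0.218). The day 15 call was lost without day 15 replicate 1 or 3 (adjusted p of 0.10 and 0.111). The partners with the highest level in em-KCs, Ptprj and the lipoprotein receptor Lrp1, were at -0.20 and -0.22 over both days and were not called.

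Of 18 partners of the cytoplasmic tail, 1 fell over both days together, where 1.19% of all genes were called. Gipc1, a PDZ protein of endocytic traffic, had 7.23 to 7.50 in day 15 mo-KCs, 7.03 to 7.66 in day 30 mo-KCs and 7.50 to 7.83 in em-KCs (difference -0.35, SE 0.08; adjusted p = 0.0199 from limma). The call was lost with the 8 colony em-KC arrays in place of all 11 (adjusted p of 0.0512) and without day 15 replicate 1 or 2 (0.0786 and 0.0799). Sdcbp, which encodes syntenin, and the GTPase gene Rhoa were at -0.08 and -0.02 over both days and were not called.

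No gene was called against em-KCs at either day among the 18 other proteoglycan core proteins and the 30 measured heparan sulfate-binding ligands. Of all genes 0.502% were called at day 15 and 0.787% at day 30, and at such shares lists this short would hold few calls or none. Srgn, the core protein of serglycin in secretory granules, and Nrp1, a VEGF-binding receptor that can carry a glycosaminoglycan chain, were at 0.14 and 0.12 over both days. Apoe, a lipoprotein ligand of heparan sulfate, and the chemokine gene Ccl24 were at 0.06 and -0.05. The median difference of the 7 lists over both days lay between -0.08 for the tail partners and 0.0041 for the ligands, beside the -0.01 of all genes. In WT against colony em-KCs, by contrast, 5 of these ligand genes were higher and 4 lower, beside the 16.5% of all genes called there. Fn1 (2.02, SE 0.22), Vtn (1.77, SE 0.25) and Apob (1.58, SE 0.19), which encode products that hepatocytes secrete, were among the higher ones and Ccl3 (-2.23, SE 0.60) and Ccl4 (-1.72, SE 0.42), chemokine genes of activated macrophages, among the lower ones. These 5 were named after their values were seen.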

How the data were processed

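Sorted KCs were measured on GeneChip Mouse Gene ST arrays, and the authors deposited log2 expression per probeset after the Robust Multi-array Average procedure, which corrects background and quantile-normalizes the arrays. Quantile normalization gives all arrays one distribution, so that each difference is relative to the other genes. Of their software, the version is not given in the sources used here. Of 35556 probesets, 21789 had 1 gene symbol and were kept (1621 had several, 12146 none), and a gene with several probesets was read from the one with the highest mean. No 2 arrays were identical, and 0 columns were left out.

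Groups were taken from the sample labels. The 3 groups, or all 7 conditions for comparisons among em-KCs, were fitted with limma 3.58.1 (lmFit, eBayes) in R 4.3.3. Two-sided p-values were adjusted by the Benjamini-Hochberg method over the 19938 genes, and 0.05 was the threshold. The fit was tested on simulated data. Precision is limited by the number of arrays.

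The members and all lists were chosen with earlier results of these data known. Named list genes are those called against em-KCs, up to 4 per list by the size of the difference, and the 2 with the highest mean in em-KCs. Alternatives covered the em-KC arrays, probesets, dim genes, normalization, variance model, the methods' t-test, a replicate block, the array set, a hepatocyte covariate, a stricter threshold and the removal of each array in turn. The fits of the difference between array sets, of the hepatocyte covariate in WT against colony em-KCs and of the list genes under the alternatives were added after seeing the data.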

Additional observations from a re-analysis of the deposited data

Results flagged for a closer look

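In 34 groups of day 30 mo-KC values, 1 per named gene, 2 arrays stood apart from the other 4 by Dixon's test, which marks such a gap in about 5% of groups by chance. Mmp14, the membrane metalloproteinase, was 7.28 in day 30 mo-KC replicate 5, against 7.92 to 8.16 in the other 4. Cd79b, the B-cell receptor chain with the highest level of its marker list, was 9.69 in day 30 mo-KC replicate 1, against 9.37 to 9.45 in the other 4. No array of Sdc1 to Sdc4 stood apart by this test.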

How the results depend on the processing

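The number of members called, here with Sdc2 included, was the same in 246 of 252 repeats over the 9 comparisons. In the main fits of mo-KCs against em-KCs the 1 member called was Sdc2. Its choice rested on that contrast, so an unchanged count there is no support for it. At day 30 against em-KCs the number was 2 with the hepatocyte mean as a covariate, where Sdc3 was at -0.34 (adjusted p of 0.0217 from limma). It was 1 to 2 there when 1 array was left out. For WT against colony em-KCs it was 0 with that covariate, 0 at an adjusted p under 0.01 and 0 to 2 when 1 WT array was left out. Every reversal was of a value that was not called. Sdc4 at day 30 against em-KCs was 0.12 with the 8 colony em-KC arrays, 0.0080 with arrays centred on their median, 1.0e-04 on the arrays with high Y-linked genes and 0.12 with the hepatocyte covariate. With that covariate Sdc1 was 0.0040 at day 15, Sdc4 0.015 over both days, and Sdc1 and Sdc3 -0.17 and 0.52 in WT against colony em-KCs. Centring gave -0.015 for Sdc1 at day 15 against untreated KC-DTR em-KCs, 0.0026 for Sdc4 in KC-DTR against littermate em-KCs and 0.017 for Sdc3 with DT, and cyclic loess gave -0.0032, 0.0024 and 0.033 for these, -0.011 for Sdc3 in KC-DTR against littermate em-KCs and 0.075 for Sdc3 in WT against colony em-KCs. Sdc3 at day 30 against day 15 was 0.015 on the arrays with high Y-linked genes. The cause of these shifts was not tested.

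Leaving out 1 array gave ranges across 0 for Sdc1 at day 15 (-0.19 to 0.16) and day 30 (-0.14 to 0.021) against untreated KC-DTR em-KCs and between the days (-0.19 to 0.16), for Sdc4 at day 30 against em-KCs (-0.10 to 0.054), for Sdc3 in WT against colony em-KCs (-0.085 to 0.043), for Sdc2, Sdc3 and Sdc4 in KC-DTR against littermate em-KCs (-0.013 to 0.12, -0.041 to 0.028 and -0.064 to 0.027) and for Sdc3 and Sdc4 with DT (-0.039 to 0.033 and -0.072 to 0.029). The untreated littermate array could not be left out of its own comparison.

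With the replicate number as a block, genes called at day 30 numbered 49 in place of 157 and over both days 155 in place of 237, and those at day 30 against untreated KC-DTR em-KCs 48 in place of 73. Those at day 15 against untreated KC-DTR em-KCs numbered 85 in place of 78, those in WT against colony em-KCs 3660 in place of 3289, and the other 4 counts were the same. The block changed no count of members called, left Sdc3 at -0.14 at day 30 (adjusted p of 0.861), and turned Sdc4 to -0.0067 at day 30 against untreated KC-DTR em-KCs and to 0.0061 in KC-DTR against littermate em-KCs. It did not call Hgsnat at day 30 (adjusted p of 0.257 from limma) or Hgsnat, Fgfr1 and Gipc1 over both days (0.0507, 0.0762 and 0.128). Of 36 pairs of arrays with the same replicate number 5 had a correlation of deviations over 0.1, beside 3 of 96 pairs with other numbers. The mean correlation was 0.018 for the former and -0.0068 for the latter. The labels do not say that the numbers pair arrays, and the main fits did not pair them. Whether same-numbered arrays belong together was not settled.

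The methods' t-test with Benjamini-Hochberg adjustment did not call Fgfr1, Mmp14 and Mmp2 at day 15 (adjusted p of 0.123, 0.0859 and 0.0648) or Sulf2 at day 30 (0.116). On the 6 arrays with low Y-linked genes alone Mmp2 at day 30 was 0.48 (adjusted p of 0.184).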
